A study of Glycine max with 7 samples.

Results

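Dense clusters of neighbouring binding sites of 2 transcription factors, GLYMA.04G093300 and GLYMA.06G314400, are described in embryos of soybean (Glycine max, cultivar Williams 82) at the cotyledon stage. The clusters were chosen by the positions of the deposited ChIP-seq peaks. Peaks of a factor that overlapped between its replicates by 1 bp or more were joined into a site, and overlapping sites of either factor were merged into a region. Regions on the 20 chromosomes with an edge-to-edge gap of 2 kb or less were linked into a chain, and chains of 5 or more regions were kept. This gave 619 chains with 3547 regions, 6.17% of the 57457 regions on the chromosomes.

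GLYMA.04G093300 was precipitated with 2 µg of an antibody to a peptide of that protein (replicates 1 and 2), and GLYMA.06G314400 with 3 µg of an antibody to a peptide of that protein (replicates 2 and 3). All 4 libraries came from crosslinked, sonicated chromatin of whole embryos taken from seeds of 3.5 to 4.5 mm. The labels number the replicates, in another way than the peak names do, and do not say whether they came from separate plants, so spreads between them may be technical. The 3 input samples of the series were not analysed here. GLYMA.04G093300 had 50665 and 39721 peaks in replicates 1 and 2, and GLYMA.06G314400 had 45324 and 50147 in replicates 2 and 3. The lists give no read counts, so library depth is unknown. Whole embryos mix cell types, so sites that neighbour each other in the lists need not be bound in the same cells.

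A transcription factor binds short DNA motifs, and in plants as in animals many such motifs can lie close together around 1 gene and act as a regulatory module. The peak lists name GLYMA.06G314400 AREB3, in Arabidopsis a bZIP protein of the family that recognises abscisic acid response elements and is active in seeds. The lists name GLYMA.04G093300 HB22, and HB is the usual prefix of homeobox proteins, whose homeodomain contacts AT-rich DNA. During the cotyledon stage the legume embryo moves from forming its organs towards filling them with reserves. The genome build of the coordinates is not given in the sources used here, so no gene, annotation or sequence was assigned to a chain. Coordinates are those of the deposited lists, with the first base counted as 1.

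Most chains were small, and the largest held 12 regions. Of the 619 chains, 349 had 5 regions, 159 had 6, 67 had 7, 26 had 8, 12 had 9, 4 had 10, 1 had 11 and 1 had 12. A chain spanned a median of 7039 bp, from 2956 to 16954 bp, and regions covered a median of 47.1% of that span. Together the chains spanned 4.59 Mb, or 0.484% of the summed chromosome lengths as far as the peaks reach. The gap between neighbouring regions of a chain had a median of 741 bp with quartiles of 337 and 1260 bp, and 35.8% of the 2928 gaps were under 500 bp. In chains of 2 to 4 regions the median gap was 776 bp, and over all neighbouring regions of the chromosomes it was 4512 bp. Since both lists of a factor must agree for a site, leaving a library out let in more peaks. The count was 957 and 1329 chains without GLYMA.04G093300 replicates 1 and 2, and 977 and 765 without GLYMA.06G314400 replicates 2 and 3.

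The threshold did not fall at a break in the data. Chains of 5, just inside it, spanned a median of 6349 bp with a median gap of 758 bp. The 938 chains of 4, just outside it, spanned 4914 bp with a median gap of 774.5 bp. Both factors were held by 27.3% of regions in chains of 5 and by 26.5% in chains of 4. In the last 100 bp up to the limit of 2 kb lay 577 gaps between neighbouring regions, and in the first 100 bp beyond it lay 533.

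Almost every chain carried both factors. Both were present somewhere in 606 of the 619 chains (97.9%), and 506 chains (81.7%) had at least 1 region that held a site of each. Of single chain regions, 65.2% carried GLYMA.04G093300, 62.5% carried GLYMA.06G314400 and 27.7% held both. Over all regions these shares were 53.0%, 68.1% and 21.1%. A chain has 5 or more regions, so these counts of chains are not read as a trait of chains. All 3 kinds of region, GLYMA.04G093300 alone, GLYMA.06G314400 alone and both, occurred in 373 chains. In 100 chains each factor was present but only in separate regions. Another 70 chains combined regions of both factors with regions of GLYMA.04G093300 alone, and 62 combined them with regions of GLYMA.06G314400 alone. Only GLYMA.04G093300 was found in 7 chains, and only GLYMA.06G314400 in 6. Every region held both factors in 1 chain. Regions with GLYMA.04G093300 outnumbered those with GLYMA.06G314400 in 272 chains, the reverse was true of 254, and 93 chains were even.

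Chain regions held GLYMA.04G093300 more often and GLYMA.06G314400 less often than the other regions. GLYMA.04G093300 alone was found in 1331 chain regions, 37.5% of them, against 31.5% of the 53910 regions outside and 31.9% of all regions. GLYMA.06G314400 alone was found in 1233, or 34.8%, against 47.8% outside and 47.0% of all. Both factors were found in 983, or 27.7%, against 20.7% outside and 21.1% of all. Counted as sites, 2349 of the GLYMA.04G093300 sites on the chromosomes (7.64%) and 2245 of the GLYMA.06G314400 sites (5.70%) lay in chains. The rule used the positions of these same sites, so the shares are a description without a test.

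The mix shifted step by step with the number of neighbours up to chains of 4. Of the 27105 regions with no neighbour within 2 kb, 47.1% carried GLYMA.04G093300, alone or with the other factor, and 70.9% carried GLYMA.06G314400. In chains of 2, 3 and 4 regions the share with GLYMA.04G093300 was 54.8%, 59.5% and 62.6%, while the share with GLYMA.06G314400 was 67.0%, 65.3% and 63.8%. In chains of 5, 6, 7 and 8 or more the shares were 63.0%, 64.6%, 73.6% and 67.0% for GLYMA.04G093300. They were 64.4%, 62.1%, 56.3% and 62.5% for GLYMA.06G314400. The factors were thus carried about equally from chains of 4 to chains of 6, and the last steps rest on 469 and 379 regions and were not in order.

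**Figure D1:**
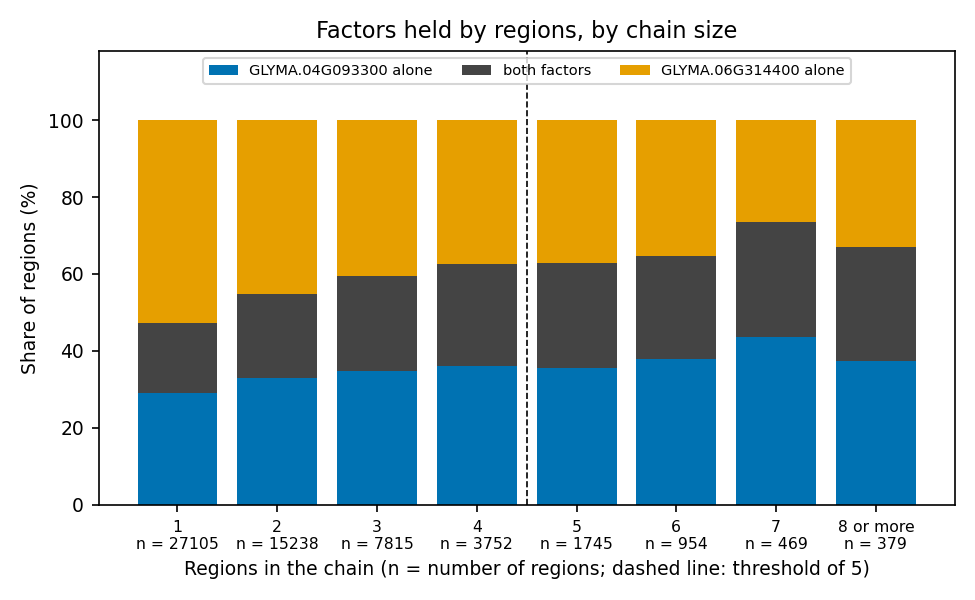
Share of regions (%, vertical axis) that held GLYMA.04G093300 alone, both factors or GLYMA.06G314400 alone, by the number of regions in their chain (horizontal axis, n below each bar). GLYMA.06G314400 alone took 52.9% of regions with no neighbour and 37.0% of regions in chains of 5, right of the dashed threshold.

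The shift was seen on most chromosomes. The share with both factors was higher in chain regions than in the other regions on 20 of 20 chromosomes. GLYMA.04G093300 alone was more frequent in chain regions on 18 of 20, the exceptions being chromosome 5 (29.7% in chains against 33.5% outside) and chromosome 12 (29.1% against 32.4%). GLYMA.06G314400 alone was less frequent on 19 of 20, all but chromosome 5, where it took 46.4% of chain regions and 45.9% of the others. Chromosomes are not biological replicates. Chain regions were wider, with a median of 529 against 485 bp outside, and 10.5% of them against 6.21% reached 1 kb. Width enters both the merging and the linking of sites. Within 5 groups of similar width, the excess of regions with both factors was 3.62 percentage points, against 7.04 points over all widths. The excess of GLYMA.04G093300 alone was then 7.63 points, against 6.04 over all widths. With the 10000 highest peaks of each library 23 chain regions were left, and the excess of GLYMA.04G093300 alone in them was 30.0 points. Without GLYMA.06G314400 replicate 2 it was 2.84 points.

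A region of a single factor could still overlap a peak of the other factor that had no match in that factor's other replicate. This was so for 254 of the 1331 GLYMA.04G093300 regions in chains (19.1%) and for 16.6% of such regions outside. For GLYMA.06G314400 alone it was so for 351 of the 1233 in chains (28.5%) and for 22.5% outside.

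Neighbours of a single-factor region held the same factor alone somewhat more often than chain regions at large did. Over all chain regions, 37.5% held GLYMA.04G093300 alone and 34.8% held GLYMA.06G314400 alone. Of the neighbours of a GLYMA.04G093300 region in chains, 45.1% held GLYMA.04G093300 alone and 28.1% held GLYMA.06G314400 alone. Of the neighbours of a GLYMA.06G314400 region, 31.1% held GLYMA.04G093300 alone and 41.9% held GLYMA.06G314400 alone. Neighbours of regions with both factors lay between, at 36.9% and 33.8%, near the shares over all chain regions. The same ordering was seen in chains of 2 to 4, where the neighbours of a GLYMA.04G093300 region held it alone in 39.3% of cases and those of a GLYMA.06G314400 region in 29.6%. The share of neighbouring pairs of the same kind was 37.4% at gaps under 500 bp, 41.5% from 500 bp to under 1 kb and 40.3% from 1 to 2 kb. Chains of differing makeup were pooled, and no baseline was computed for these shares of pairs. Summits of neighbouring sites of the same factor within a chain lay a median of 1584 bp apart for GLYMA.04G093300 and 1657 bp apart for GLYMA.06G314400.

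The chain with most regions lay on chr10:45454624-45471485 and spanned 16862 bp with 12 regions. GLYMA.04G093300 alone held 4 of them, GLYMA.06G314400 alone held 7, and 1 held both. The fold of a peak, its enrichment as computed by the authors' peak caller within 1 library, is comparable only within that library.

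The region with both factors was the second, chr10:45456014-45457322. Its folds were 6.81 and 7.60 in GLYMA.04G093300 replicates 1 and 2 and 15.8 and 17.6 in GLYMA.06G314400 replicates 2 and 3. These were the highest of the chain in all 4 libraries. The GLYMA.04G093300 regions were the first (chr10:45454624-45455123), the fifth (chr10:45462098-45462480), the sixth (chr10:45462554-45462923) and the last (chr10:45470993-45471485). Their folds were 4.14, 4.27, 3.54 and 3.72 in replicate 1 and 4.86, 3.89, 2.63 and 4.72 in replicate 2. The fifth also overlapped a GLYMA.06G314400 peak of fold 4.08 seen in replicate 3 only.

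The GLYMA.06G314400 regions formed a pair and a run of 5. The pair was chr10:45458305-45458662 and chr10:45459863-45460315, with folds of 5.68 and 11.8 in replicate 2 and 6.25 and 7.02 in replicate 3. The run began with chr10:45463714-45464052, chr10:45464179-45464873 and chr10:45466547-45466894, with folds of 5.34, 4.01 and 4.57 in replicate 2 and 4.89, 4.73 and 5.09 in replicate 3. It ended with chr10:45467816-45468333 and chr10:45470113-45470762, with folds of 10.1 and 8.24 in replicate 2 and 8.77 and 8.33 in replicate 3. The 4 weakest of these 7 regions stayed under 7 in both replicates. The second of the pair had the highest fold of the 7 in replicate 2 but not in replicate 3.

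**Figure D2:**
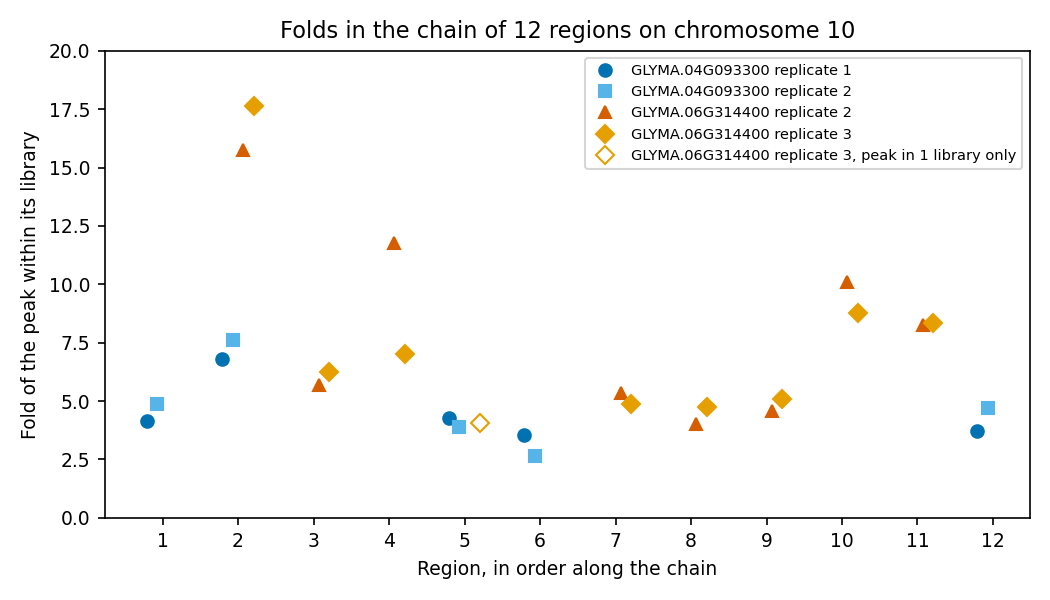
Fold of the peak within its library (vertical axis) for the 12 regions of the chain on chromosome 10, in their order along it (horizontal axis), 1 symbol per library. The second region has the highest fold in all 4 libraries, and the open symbol is a peak seen in replicate 3 of GLYMA.06G314400 only.

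The next chains by number of regions differed in their mix. The chain of 11 regions on chr10:2682077-2698451 had both factors in 5 regions, GLYMA.06G314400 alone in 4 and GLYMA.04G093300 alone in 2, and its kind changed 7 times between neighbours. Its 3 last regions all held both factors, with folds of 10.2, 8.85 and 9.14 in GLYMA.04G093300 replicate 1 and 5.39, 5.92 and 6.71 in replicate 2. In GLYMA.06G314400 replicates 2 and 3 the same regions had folds of 5.05, 7.97 and 6.45 and of 7.90, 7.87 and 9.93. They held the top of the chain for GLYMA.04G093300, whereas its highest GLYMA.06G314400 folds, 15.2 and 19.7, lay in other regions.

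Of the 4 chains of 10 regions, the one on chr1:704901-721854 held GLYMA.06G314400 in 9, with folds of 3.36 to 30.6 in replicate 2 and 4.25 to 31.3 in replicate 3. The 1 region of GLYMA.04G093300 alone in it reached folds of 10.7 and 7.76 in replicates 1 and 2. On chr4:3140445-3155602, 4 regions held GLYMA.04G093300 alone with folds of at most 6.05 in replicate 1 and 3.99 in replicate 2. The GLYMA.06G314400 folds of that chain reached 33.2 and 35.2 in replicates 2 and 3, both in its first region.

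On chr17:38596405-38610724 both factors met in 4 regions and the folds reached 34.0 and 35.3 for GLYMA.06G314400. On chr11:1322921-1336484, 6 regions held GLYMA.06G314400 alone and folds reached 36.1 and 46.3 for that factor, with 14.4 and 10.4 for GLYMA.04G093300. The 4 chains of 9 regions among the 10 largest differed in makeup. The chain on chr2:47237754-47252157 had GLYMA.06G314400 alone in 6 regions. The chains on chr17:40520303-40534621, chr10:48414314-48427990 and chr17:11337869-11351470 each had GLYMA.04G093300 alone in 5. All 10 of these chains held regions of each of the 3 kinds.

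**Figure D3:**
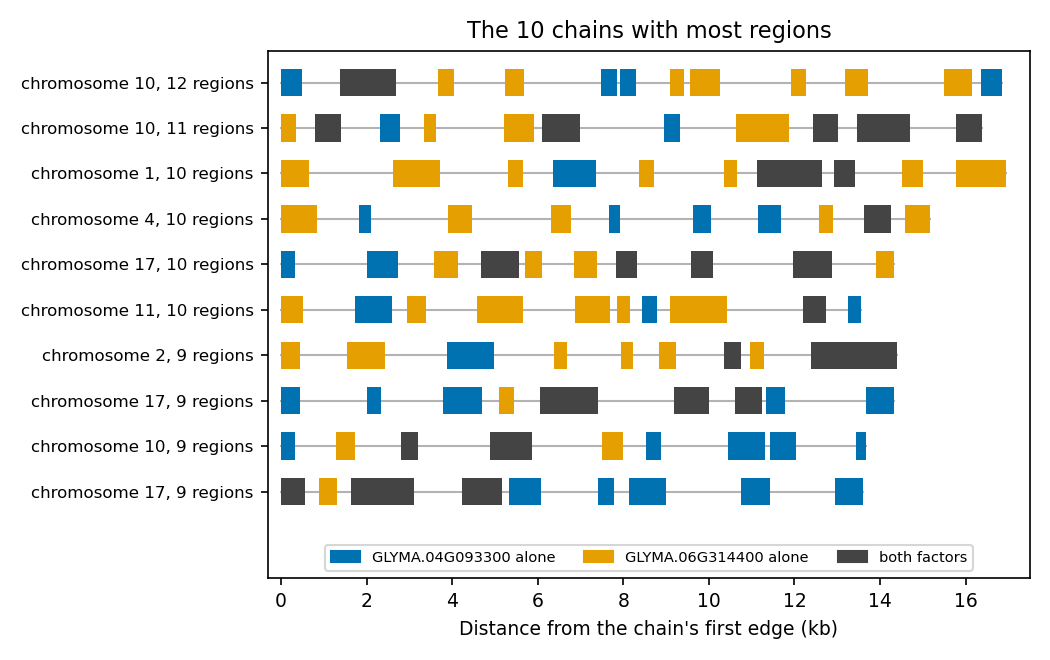
Regions of the 10 chains with most regions, drawn to scale by distance from the first edge of the chain (kb, horizontal axis), 1 chain per row, coloured by the factors held. All 3 kinds of region occur in each row, and the longest of these chains spans 16954 bp.

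The largest with GLYMA.04G093300 alone throughout lay on chr9:47780548-47785916, chr10:44279036-44283652 and chr13:41187612-41194155, with 6, 6 and 5 regions. Their median folds were 5.59, 5.68 and 4.89 in replicate 1 and 4.49, 5.15 and 3.83 in replicate 2. In the first of them, the highest region, chr9:47781956-47782723, had folds of 8.10 and 7.24, and the lowest, chr9:47783250-47783598, had 3.92 and 3.21. Both replicates thus had the same regions at the top and the bottom of that chain. In each of these chains some regions also overlapped GLYMA.06G314400 peaks seen in a single replicate. Their folds were 4.51 and 2.77 in replicate 3 on chromosome 9. On chromosome 10 they were 3.79 in replicate 3 and 4.05 in replicate 2, and on chromosome 13 the fold was 7.33 in replicate 3.

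The largest with GLYMA.06G314400 alone throughout had 7 regions on chr5:6257731-6265792. Its region chr5:6263423-6264543 had folds of 38.9 and 47.1 in replicates 2 and 3, while the other 6 lay between 4.27 and 15.5 in replicate 2 and between 2.87 and 14.3 in replicate 3. The next lay on chr3:42488241-42495370 and chr12:38081632-38088546, with 6 regions each. Median folds there were 5.71 and 7.06, and 19.7 and 17.0, in replicates 2 and 3. The median percentile of fold was 84.2 in the chromosome 12 chain, and 38.1 and 39.2 in the chains on chromosomes 5 and 3. The chromosome 12 chain was mixed, with its 6 regions at percentiles of 31.7, 50.3, 94.7, 93.5, 96.1 and 74.96 in their order. Single-replicate GLYMA.04G093300 peaks overlapped some regions of these chains as well. Their folds were 2.94 on chromosome 5 and 3.68 on chromosome 3, both in replicate 1. On chromosome 12 they were 4.09 in replicate 1 and 3.30 in replicate 2.

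GLYMA.04G093300 was present in every region of 78 chains and GLYMA.06G314400 in every region of 69. The largest with GLYMA.04G093300 throughout held 8 regions, on chr8:16934763-16946332 and chr3:42469281-42477108, with both factors in 4 regions each. The third had 7 regions on chr8:13762525-13773834. The largest with GLYMA.06G314400 throughout were on chr17:10221333-10234131 with 8 regions and on chr11:6907523-6919547 and chr10:43747961-43759775 with 7 each, ties being ranked by span. The chain of 7 on chromosome 5 described above has as many regions over a shorter span. In the chain on chr10:43747961-43759775 the folds reached 53.2 and 57.8 for GLYMA.06G314400 and 13.1 and 10.3 for GLYMA.04G093300.

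The chain in which every region held both factors lay on chr13:37546246-37552154. Its 5 regions had folds of 3.92, 11.2, 6.67, 5.24 and 7.69 in GLYMA.04G093300 replicate 1 and of 3.31, 8.79, 3.03, 4.96 and 5.34 in replicate 2. In GLYMA.06G314400 replicate 2 they were 12.03, 8.42, 31.6, 19.0 and 4.87, and in replicate 3 they were 19.1, 12.2, 36.0, 33.0 and 7.05. The second region was highest for GLYMA.04G093300 in both replicates and the third for GLYMA.06G314400 in both, so the factors differed in which region ranked first. The fourth region ended at 37551151 and the fifth began at 37551152. They touched without overlapping and so counted separately. Counted as 1 region, they would leave the chain below the threshold of 5.

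By the median percentile of fold over their regions, the highest chains were on chr11:3907916-3921695, chr17:5457399-5467321, chr17:2589344-2597992, chr1:52496725-52504841 and chr6:5944927-5951951, at 92.0, 91.6, 90.9, 89.6 and 89.1. The first held 7 regions, and its widest, chr11:3911140-3913951, was 2812 bp long. That region had GLYMA.04G093300 folds of 11.7 and 12.2, and GLYMA.06G314400 folds of 21.5 and 21.6. The kind of region changed at every step in a chain of 9 on chr17:3543101-3552517, which held 3 regions of each kind, and at every step in the chain of 7 on chromosome 11 just described. Next in the number of changes, with 7 each, were the chain of 11 on chromosome 10 and a chain of 9 on chr18:2723951-2737288.

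Chains combined sites of all strengths. In 262 chains (42.3%) at least 1 region reached the 90th percentile of fold, averaged over its libraries. Of single regions, 9.53% in chains and 8.40% outside reached it, so the count of chains is not read as a trait of chains. Only 8 chains had 3 or more such regions, and 6 had no region at the 50th percentile or above. The highest region of a chain lay at 1 of its ends in 34.6% of chains, while end regions made up 34.9% of chain regions. End and inner regions had median percentiles of 57.1 and 57.4.

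The strongest site of a chain was often the same in both replicates. Among the 483 chains with 3 or more GLYMA.04G093300 sites, the same site had the highest fold in both replicates in 304 (62.9%). Among the 491 chains with 3 or more GLYMA.06G314400 sites, this was so in 384 (78.2%). Such chains had a median of 4 sites of the factor in each case. Every site had a peak in both replicates by the rule, and no such share was computed outside these chains. The counts are therefore not read as a trait of chains. The strongest GLYMA.04G093300 site had a median of 1.51 and 1.46 times the median fold of its chain in replicates 1 and 2. For GLYMA.06G314400 the ratio was 2.02 and 1.91 in replicates 2 and 3, and it is not compared between the factors, whose lists differ in their range of folds. The strongest regions of the factors coincided in 110 of the 538 chains (20.4%) that had 2 or more regions of each. Such chains had a median of 5 regions, which sets no baseline for that share. Each factor was ranked only among the regions that carried it. The strongest regions could coincide only in a region with both factors, and 506 of all 619 chains had 1 or more.

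In chain regions with both factors, the summits of the factors were a median of 131 bp apart and 40.3% were within 100 bp. Outside chains the median was 131 bp too, and 39.7% were within 100 bp. The distance between the factors within a region was therefore alike in and outside chains in these lists.

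In both GLYMA.04G093300 libraries the median rank of sites was higher in chains than outside, and in both GLYMA.06G314400 libraries it was slightly lower. The percentile of fold within a list had a median of 70.2 in chains against 66.2 outside in GLYMA.04G093300 replicate 1, and of 63.0 against 57.9 in replicate 2. The median folds were 5.14 against 4.89 and 4.27 against 4.09. In GLYMA.06G314400 the percentiles were 54.0 in chains against 56.2 outside in replicate 2 and 60.02 against 60.5 in replicate 3. The median folds were 6.92 against 7.23 and 8.21 against 8.29. The mean difference was 4.58 ± 0.762 percentiles for GLYMA.04G093300 and -1.34 ± 1.20 for GLYMA.06G314400 (SD, n = 2 libraries each). All differences were small beside the spread of the regions. The upper part of the GLYMA.06G314400 ranks went the other way. In replicate 2, 12.4% of its chain regions against 11.4% outside lay at the 90th percentile or above. In replicate 3 the shares were 14.5% and 12.6%. Its upper quartiles were 78.3 in chains against 78.2 outside and 81.3 against 80.3. Its lower quartiles were lower in chains, at 28.9 against 31.9 and 37.2 against 38.5.

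The median differences had the same signs among regions of a single factor. They were 2.58 and 3.24 percentiles where GLYMA.04G093300 stood alone, and -4.31 and -1.82 where GLYMA.06G314400 did. The signs were also the same in regions with both factors, where GLYMA.04G093300 had 4.37 and 5.75 percentiles and GLYMA.06G314400 had -1.35 and -1.36. Within 5 groups of similar width the mean differences were 2.13 and -4.03. The sign for GLYMA.06G314400 turned to 1.08 with the 10000 highest peaks per library and to 1.15 when sites were not merged across factors. With those 10000 peaks the GLYMA.04G093300 difference was 0.376.

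**Figure D4:**
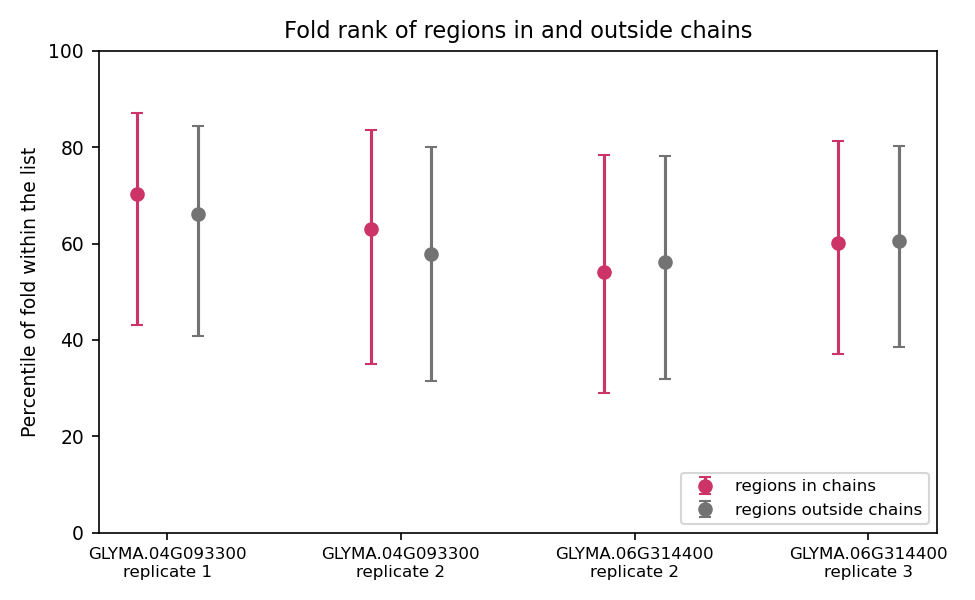
Percentile of fold within its own list (vertical axis; point, median over regions; bar, quartiles) for regions in chains and outside, in each library. Chain regions have the higher median in both GLYMA.04G093300 libraries (70.2 against 66.2 and 63.0 against 57.9), and the quartiles overlap widely in all 4.

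Whether chain regions recurred was asked in libraries that had not chosen them. Chains were rebuilt from the peaks of 1 library of each factor, and the remaining library of each factor was searched for an overlapping peak. With GLYMA.04G093300 replicate 1 and GLYMA.06G314400 replicate 3 choosing, 1725 chains were found, and 76.3% of their regions against 74.3% of other regions recurred. Over the 4 ways of choosing, chain regions recurred in 76.3% to 87.5% and other regions in 74.3% to 84.5%. The excess of chain regions was between 0.849 and 3.80 percentage points. Within 5 groups of similar width it was -0.355, 1.82, -0.584 and 1.91 points, so no direction held at equal width.

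Recurrence was also counted for each factor, here without groups of width. Chain regions were wider than the others, and the part of width in these shares was not tested. Chain regions that carried GLYMA.04G093300 recurred in its replicate 2 in 69.4% and 69.6% of cases, against 62.1% and 62.0% of other regions, when its replicate 1 had chosen. When replicate 2 had chosen, replicate 1 held 83.6% and 83.4% of them, against 79.8% and 79.8%. Chain regions that carried GLYMA.06G314400 recurred in its replicate 3 in 92.2% and 92.0%, against 88.3% and 88.4%, but in its replicate 2 in 77.8% and 77.3%, against 79.9% and 79.9%. A whole chain overlapped a chain of the other 2 libraries in 44.5% to 67.2% of cases. An exact permutation of 2 libraries per factor cannot give a two-sided p below 0.333, and none was run.

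Chains lay towards the chromosome ends even more than the other regions did. The gene-rich parts of soybean chromosomes are their ends, and the parts around the centromeres are rich in repeats. The outermost 10% at each end held 48.2% of chain regions and 39.5% of the others, and the middle 50% held 13.4% and 21.5%. Regions outside chains were themselves densest near the ends. The first 5% of the span held 10.05% of them, and the bin from 50% to 55% held 1.22%. The rule picks stretches where regions are dense, so the position of chains is not read as a trait of chains. Chain regions were less frequent in the middle 50% on 19 of 20 chromosomes. On chromosome 2 the shares were 18.9% and 18.8%. Chromosome 13, with 50.8% of its chain regions and 55.1% of its other regions in the middle 50%, raised the pooled values. Without it they were 10.6% and 18.9%. Within the outermost 10% at each end, GLYMA.06G314400 alone was 10.9 points less frequent in chain regions than in other regions, against 13.1 over all positions. The excess of regions with both factors was 5.20 points there, against 7.04. That of GLYMA.04G093300 alone was 5.70 points, against 6.04. The part of position in the mix was not tested. With the 10000 highest peaks per library, where 23 regions formed 4 chains, chain regions were 31.5 points more frequent in the middle.

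**Figure D5:**
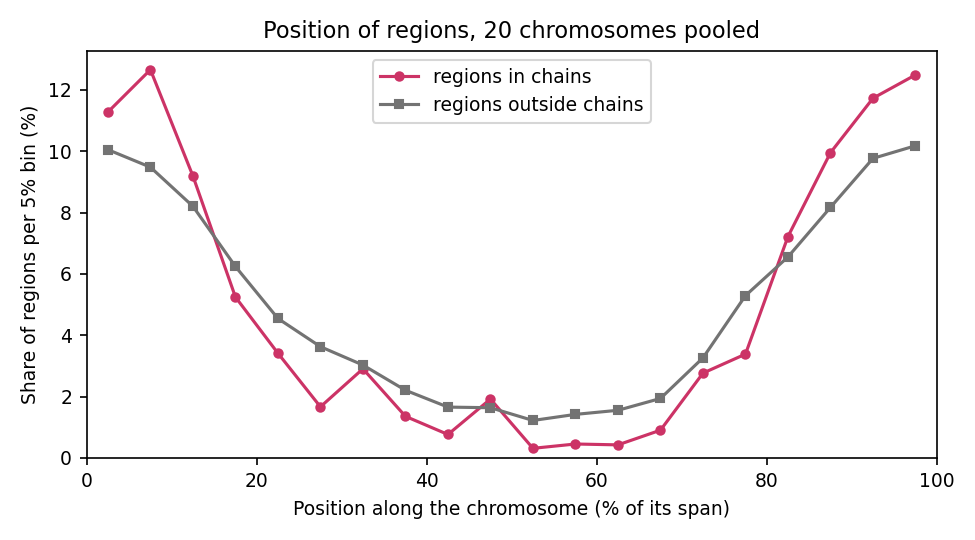
Share of regions in each 5% bin of the chromosome span (%, vertical axis) by position along the chromosome (% of its span, horizontal axis), for regions in chains and outside, with 20 chromosomes pooled. Chain regions exceed the others in the 3 outermost bins at the left and the 4 at the right, and lie below them in all but 1 of the bins between.

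Chromosomes differed in how many of their regions were in chains. The share was highest on chromosomes 11, 17 and 20, at 8.30%, 8.10% and 7.96%, and lowest on chromosomes 16, 7 and 18, at 3.63%, 4.18% and 4.27%. Chromosomes 11 and 17 were also among the densest, at 83.6 and 78.3 regions per Mb, and chromosomes 16 and 18 among the sparsest, at 50.2 and 46.5. Chromosome 7, also low in its share, was not among the sparsest, at 62.2 per Mb. Chromosome 13 was the densest, at 91.8 per Mb, with 5.98% of its regions in chains, and chromosome 20 had 51.1 per Mb. Chromosome 6 had the most chains, 46, and chromosome 16 the fewest, 12. Successive chains on a chromosome lay a median of 373 kb apart, and 16 of 599 successive pairs were under 10 kb apart.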

How the data were processed

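Peak lists of 4 ChIP-seq libraries were analysed. Per the submitters' processing notes, Bowtie 0.12.7 and MACS3 were used. Each library has its own list, and the deposited peak names and lowest q-values give a q limit of 0.01. Neither the genome build nor the control used in peak calling is given in the sources used here. The deposited lists give each peak's position, summit, fold (a ratio within 1 library), −log10 p-value and −log10 q-value. The integer score deposited by the authors was not used. Fold ranks are percentiles within a list, and a region takes its highest peak per library.

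Sites, regions and chains were computed with Python 3.11.15, numpy 2.4.6 and scipy 1.17.1, and figures drawn with matplotlib 3.10.9. The code was tested on simulated data and against an exhaustive search. Samples were grouped and numbered by their titles. The peak names carry other replicate numbers, which were not used, so a replicate number here is the title's. Members and lists were chosen with earlier results of these data known. All comparisons come from the lists that chose the chains and are given without a test, except the look-up in other libraries, which is also untested. Chromosome length was taken as the highest peak end. Named chains followed a fixed rule: the 10 with most regions (ties by longer span), up to 3 of each uniform makeup, the 5 with the highest median percentile and those with most changes of kind. Alternatives were other gaps, chain sizes, peak thresholds, overlaps and left-out libraries. RefSeq gene names were not used, as no build links them to the peaks.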

Additional observations from a re-analysis of the deposited data

Results flagged for a closer look

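The median rank of chain sites moved in opposite directions in the factors, in every library. The median percentile of fold in chains minus that outside was 4.04 and 5.12 in GLYMA.04G093300 replicates 1 and 2, and -2.19 and -0.495 in GLYMA.06G314400 replicates 2 and 3. The upper quartile of GLYMA.06G314400 was instead slightly higher in chains, at 78.3 against 78.2 in replicate 2 and 81.3 against 80.3 in replicate 3. In regions of GLYMA.06G314400 alone it was lower in chains, at 73.8 against 75.9 and 76.2 against 77.6. The lower rank of GLYMA.06G314400 therefore holds for the median and not for the whole range. The difference between the factors was not tested, since each has 2 libraries. Chain regions were wider than the others, at a median of 529 against 485 bp. Within 5 groups of similar width GLYMA.04G093300 had a mean difference of 2.13 and GLYMA.06G314400 one of -4.03, so both signs were kept. The lists also differ in length and in their range of folds, and the part of these was not tested.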

How the results depend on the processing

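How many chains there are depends on the definition, while the direction of the mix was kept in the alternatives run. The count of 619 chains became 119 with a gap of 1 kb, 2439 with 5 kb, 267 with region midpoints 2 kb apart, 1557 with 4 or more regions, 270 with 6 or more, 4 with the 10000 highest peaks per library, 1762 with sites not merged across factors and 193 with regions under 500 bp apart joined first. In that order the regions in chains were 646, 16147, 1471, 7299, 1802, 23, 10817 and 1060, and their share of all regions was 1.12%, 28.1%, 2.56%, 12.7%, 3.14%, 0.172%, 15.4% and 2.07%. The share was 4.95% at a q of 1e-05 and 5.25% with an overlap of 50% of both peaks. Leaving out each library in turn gave 765 to 1329 chains, 4427 to 7876 regions and 7.07% to 11.0%. The settings change how many regions enter or can link, and the cause of each move was not tested.

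The share of chain regions with both factors, 27.7%, was 29.6% with 1 kb, 25.4% with 5 kb, 25.2% with midpoints, 25.6% at a q of 1e-05, 13.04% with the 10000 highest peaks, 23.6% with 50% overlap and 31.7% with close regions joined. The excess of chain regions over the others kept its sign in 15 of 15 alternatives for both factors. It did so in 16 of 16 for GLYMA.04G093300 alone (2.84 to 30.0 points). The deficit of GLYMA.06G314400 alone was also kept in 16 of 16 (-35.3 to -8.11). The -8.11 came from sites not merged across factors, where no region can hold both. The values there, 8.11 and -8.11, mirror each other and count all sites of a factor. The next smallest deficit was -10.3, without GLYMA.06G314400 replicate 2. The excess of chain regions found again in other libraries, 2.07 points, was 3.80 when GLYMA.04G093300 replicate 1 and GLYMA.06G314400 replicate 2 chose, 0.849 with replicates 2 and 3, 3.02 with replicates 2 and 2, and -0.355 within groups of width. The deficit in the middle of chromosomes turned to 31.5 points with the 10000 highest peaks. The lower median rank of GLYMA.06G314400 sites turned to 1.08 there and to 1.15 without merging. The cause of these turns was not tested. The alternatives with close regions joined, the outermost 10%, groups of width, and all alternatives for the classes of region, position and rank were chosen after seeing the data. No paired analysis and no test over libraries was run. The factors share 1 replicate number in the titles, and the peak names number the replicates in another way. Pairs of libraries could therefore not be set. The lists hold no read counts, so depth sets an unknown limit on weak sites.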

Other observations

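Some chains lay next to others of another makeup, and these were chosen after their values were seen. On chromosome 3 the chain from 42469281 to 42477108, in which GLYMA.04G093300 was in every one of 8 regions, was followed after 11.1 kb by the chain from 42488241 to 42495370, in which all 6 regions held GLYMA.06G314400 alone. On chromosome 17 a chain of 5 from 9872380 to 9879548 had GLYMA.04G093300 alone in 4 regions, and 9.31 kb on a chain of 6 from 9888859 to 9894635 had GLYMA.06G314400 alone in 4 and both factors in 2. The closest pair, 2.37 kb apart on chromosome 19 (47916127 to 47925054 and 47927427 to 47935327), held 5 regions each. On chromosome 13, 3 chains of 5, 6 and 6 regions followed each other between 22554035 and 22598850.

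Scaffolds outside the 20 chromosomes held 303 regions on 54 scaffolds and 1 further chain, of 6 regions.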
